A study of Mus musculus with 12 samples.

Results

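The 5p arms of the miR-290 cluster are the microRNAs cut from the 5′ side of a row of hairpins on mouse chromosome 7. They were taken by name from the table of all samples: miR-290a-5p, miR-291a-5p, miR-292a-5p, miR-291b-5p, miR-294-5p and miR-295-5p, 6 of the 616 microRNAs listed. Small RNAs shorter than 100 bp were sequenced from 12 libraries of untreated CD1 mouse embryos. The libraries hold primordial germ cells (PGC), from which eggs and sperm descend, and gonadal somatic cells (SC), the other cells of the gonad, from female and male embryos on embryonic days 11.5, 12.5 and 13.5 (E11.5, E12.5 and E13.5). Each of the 12 combinations had 1 library and no replicate. Embryos were sexed by PCR, the mesonephros was taken off, and groups of about 80 gonads were pooled and split with anti-CD15 magnetic beads. A germ cell stain gave an enrichment of 93 to 96% for PGC fractions and a purity over 90% for SC fractions, so each fraction could hold some cells of the other type, per the labels' protocols. With no replicates, every p-value below measures only the spread between these libraries over stages and sexes, which may be technical.

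Each microRNA hairpin can release a mature microRNA from either side, and usually 1 arm is kept by the Argonaute proteins that carry microRNAs to their targets while the other is degraded. Bases 2 to 8 of the mature microRNA, the seed, pair with target transcripts. The cluster, made as a single primary transcript, is known from mouse embryonic stem cells, early embryos and germ cells, and it is best known for those of its 3p arms that share an AAGUGC seed, which act on cell cycle regulators. Less is established about the targets of the 5p arms.

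The mature sequences of all 6 are shown because the counts separate microRNAs that differ by few bases. They are given 5′ to 3′ in genome order, from RefSeq on GRCm38.p6, with the seed in capitals. All lie on the plus strand of chromosome 7 and all are 22 bases long.
miR-290a-5p: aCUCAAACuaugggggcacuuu
miR-291a-5p: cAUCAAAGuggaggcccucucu
miR-292a-5p: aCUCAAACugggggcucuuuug
miR-291b-5p: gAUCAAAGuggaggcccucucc
miR-294-5p: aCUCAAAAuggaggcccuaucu
miR-295-5p: aCUCAAAUguggggcacacuuc

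miR-290a-5p lies at chr7:3218639-3218660, miR-291a-5p at chr7:3218932-3218953 and miR-292a-5p at chr7:3219200-3219221. miR-291b-5p lies at chr7:3219494-3219515, miR-294-5p at chr7:3220655-3220676 and miR-295-5p at chr7:3220779-3220800. The 6 arms thus span 2162 bp. RefSeq places an lncRNA, D7Ertd143e (3218784 to 3221015), and the protein-coding gene Nlrp12 (3218643 to 3249771) over the same interval, and the hairpins Mir290b and Mir292b on the opposite strand across Mir290a and Mir292. The 5p arms of these opposite-strand hairpins were not analysed here.

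The 6 arms carry 4 different seeds. miR-290a-5p and miR-292a-5p share CUCAAAC, which among the listed microRNAs is found in 1 further member of the cluster, miR-293-5p. miR-291a-5p and miR-291b-5p share AUCAAAG, while miR-294-5p (CUCAAAA) and miR-295-5p (CUCAAAU) each have a seed of their own. The letters UCAAA lie within the seed of all 6 arms and of miR-293-5p, that is in 7 of the 526 listed microRNAs with a RefSeq sequence (1.33%). Of the 3p arms of the same hairpins, 5 had a RefSeq sequence, and in 5 of these 5 the seed starts with AAGUGC. miR-291a-5p and miR-291b-5p are identical at 20 of 22 bases, and miR-291a-5p and miR-294-5p at 18 of 22. How the counting assigned reads between such close copies is not given in the sources used here, so the split between miR-291a-5p, miR-291b-5p and miR-294-5p is uncertain.

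Levels are given in reads per 1000000 microRNA reads of the library (RPM). A value of 0 stands for fewer than 5 reads, since no smaller number occurs in the files. The libraries held 166804 (PGC female E12.5) to 1768825 (SC female E11.5) microRNA reads, so that 5 reads correspond to between 2.83 and 29.98 RPM. The library labelled PGC female E11.5 stood apart. In it, 3 of 5 microRNAs of a germ cell list (miR-743a-3p, miR-465a-5p and miR-880-3p) were at 0 and the list summed to 13.9 RPM, against 434 to 10786.5 RPM in the other 5 PGC libraries. A list of 5 mesenchymal and smooth muscle microRNAs summed to 83830 RPM there, within the SC range of 68816 to 114203 RPM, against 8143 to 57896 RPM in the other PGC libraries. No microRNA of that mesenchymal list was at 0 in any library. The endothelial microRNAs miR-126a-3p and miR-126a-5p summed to 51442 RPM in PGC female E11.5, above the SC range of 16088 to 37105 RPM, against 4669.5 to 27782 RPM in the other PGC libraries. In both lists PGC male E11.5 was the highest of these other PGC libraries. Erythroid and muscle microRNA lists were likewise highest among PGC in PGC female E11.5 (1663 and 1229 RPM), followed by PGC male E11.5 (774 and 913 RPM). The liver microRNA miR-122-5p stood at 4280 RPM in PGC female E11.5, but also at 2015 RPM in PGC male E11.5 and 3023 RPM in SC male E11.5. The gonadal somatic microRNAs miR-202-5p and miR-202-3p did not set the library apart, at 264 RPM against 155 to 3054 RPM in the other PGC libraries. Results that rest on PGC female E11.5 are therefore given with and without it. In such bulk fractions, fewer cells of a type and less RNA per cell cannot be told apart.

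The 5p arms of the miR-290 cluster were abundant in PGC and scarce in SC. miR-292a-5p, by far the most abundant of the 6, had 789 RPM in PGC female E11.5 and 22656 RPM in PGC male E11.5. A day later PGC had 56126 (female) and 63994 RPM (male), and on the last day 27149 and 42041 RPM. In SC the same arm had 52.0 RPM in the female and 42.5 in the male E11.5 library, then 152 and 198 RPM a day later, and 706 and 1952 RPM on the last day. Every PGC library was above the SC library of the same stage and sex, but the groups as a whole overlapped, because PGC female E11.5 lay below SC male E13.5. Among the microRNAs of a library miR-292a-5p ranked 3rd to 11th in 5 PGC libraries and 134th in PGC female E11.5, whereas its rank in SC ran from 83 to 347.

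The miR-291 pair came next. miR-291a-5p ran from 61.4 RPM (PGC female E11.5) over a median of 3628 to 7002 RPM (female E12.5) in PGC, against 0 (both SC E11.5 libraries) over a median of 12.1 to 144 RPM (SC male E13.5) in SC. miR-291b-5p ran from 13.1 over 1037 to 2032 RPM in PGC, against 0 over 4.57 to 37.6 RPM in SC. For both, the only PGC value inside the SC range was that of PGC female E11.5.

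miR-290a-5p, from the first hairpin of the cluster, ran from 41.8 over 1786 to 2443 RPM in PGC, against 0 over 3.49 to 96.3 RPM in SC, and its groups overlapped by the same library. It was above miR-291b-5p in 5 of 6 PGC libraries and below it in PGC female E12.5, so the order of these arms is not firm. miR-291a-5p was above both in all 6 PGC libraries.

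miR-294-5p and miR-295-5p, the minor arms of the hairpins nearest to the 3′ end of the cluster, were the rarest. In PGC miR-294-5p was at 0 in female E11.5 and reached 534 RPM in female E12.5, with a median of 241 RPM, against 0 in 4 SC libraries and 4.13 (female) and 9.63 RPM (male) at E13.5 in SC. miR-295-5p was at 0 in PGC female E11.5 and had 64.7 to 152 RPM in the other 5 PGC libraries, against 0 in all 6 SC libraries. Its reads numbered 188 in all PGC libraries together, so its values carry the widest counting error of the 6.

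**Figure D1:**
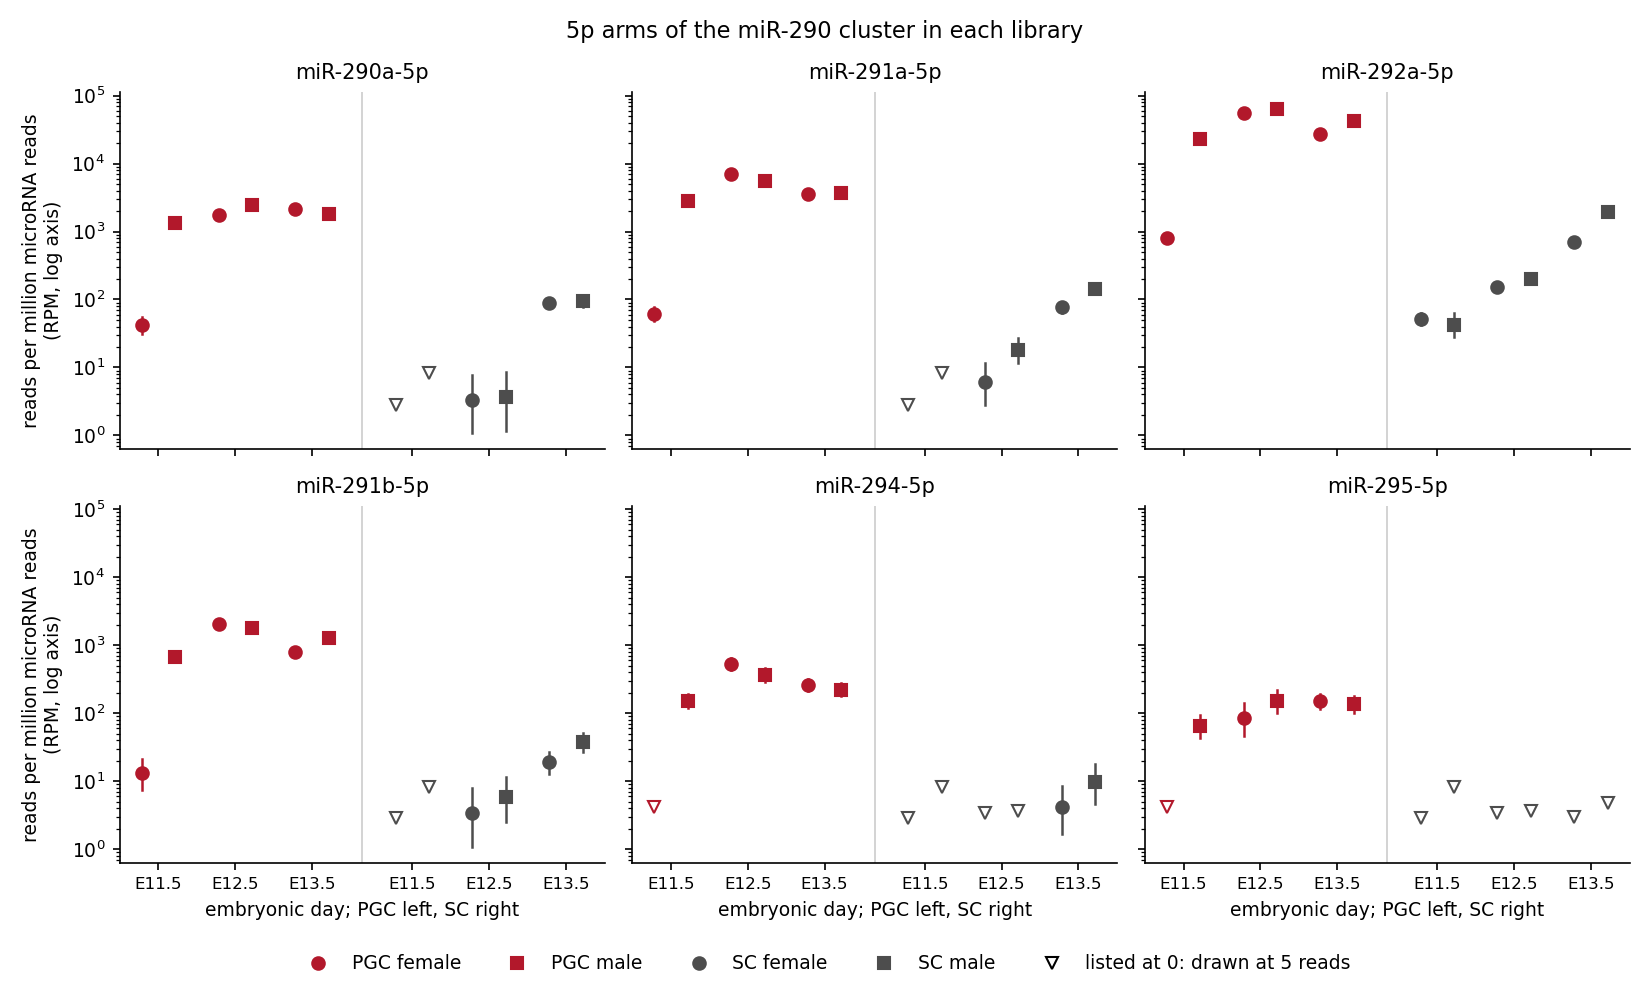
Level of each 5p arm in every library, in RPM on a log axis, with PGC on the left and SC on the right of each panel, circles for female and squares for male; bars are exact 95% intervals for counting error and open triangles mark values of 0, drawn at the level of 5 reads. In each panel the PGC points lie far above the SC points of the same day, except for PGC female E11.5, which for miR-292a-5p has 789 RPM against 22656 RPM in PGC male E11.5.

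Summed, the 6 arms took 0.0906% of microRNA reads in PGC female E11.5 and 2.77% in PGC male E11.5, then 6.75% (female) and 7.42% (male) a day later and 3.41% and 4.92% on the last day. The SC libraries gave them 0.00520% (female) and 0.00425% (male) on the first day, 0.0165% and 0.0226% on the second, and 0.0893% and 0.224% on the third. The share of PGC female E11.5 (exact Clopper-Pearson 95% interval 0.0853 to 0.0961%, counting error only) and that of SC female E13.5 (0.0849 to 0.0940%) had overlapping intervals, although they come from different cell fractions. miR-292a-5p alone made up 83.9 ± 2.88% of the reads of the 6 arms in PGC (SD, n = 6) and 79.0 to 100% in SC. In PGC miR-291a-5p took 6.78 to 10.40% of the reads of the 6, miR-290a-5p 2.61 to 6.36% and miR-291b-5p 1.45 to 3.01%. The shares were 0 to 0.79% for miR-294-5p and 0 to 0.443% for miR-295-5p. The wide range of the total in PGC rests on PGC female E11.5, without which it ran from 2.77 to 7.42%. Without that library the share of miR-290a-5p still ran from 2.61 to 6.36% and that of miR-295-5p from 0.124 to 0.443%. Not every proportion thus varied less than the total. Of all reads of the cluster, both arms of every listed hairpin, the 6 arms were 43.0 ± 7.5% in PGC and 28.3 ± 10.6% in SC (SD, n = 6 each). By seed, the CUCAAAC microRNAs among the 6 (miR-290a-5p and miR-292a-5p) reached 66437 RPM in PGC male E12.5 and at most 2048 RPM in SC.

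**Figure D2:**
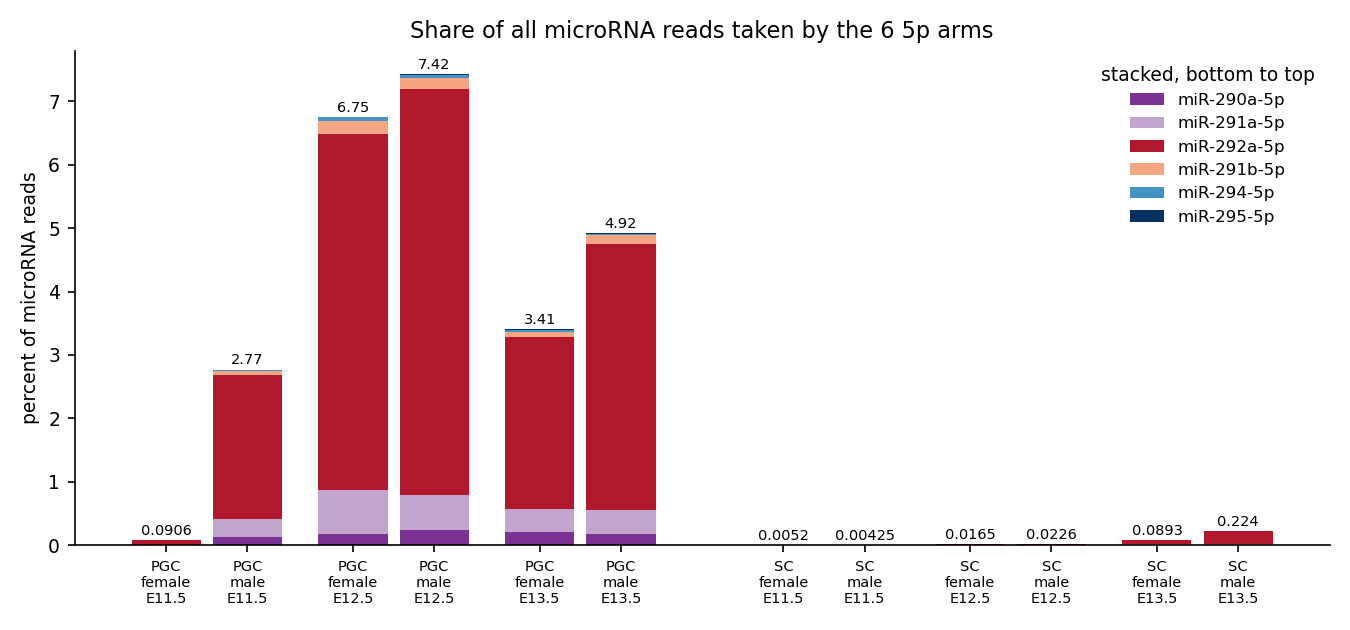
Percent of all microRNA reads taken by the 6 arms in each library, stacked by arm from bottom to top in genome order, with the sum written above each bar. miR-292a-5p makes up most of every bar; the PGC sums run from 0.0906% to 7.42% and the SC sums from 0.00425% to 0.224%.

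The comparison of PGC with SC asks which microRNAs mark the germ cells. The deposited scale, a count divided by 1 size factor per library, leaves the library totals unequal. They ran from 105730 (PGC female E12.5) to 2158040 (SC female E11.5). On this scale 6 of 6 arms were higher in PGC by limma (Benjamini-Hochberg adjusted p between 0.000200 and 0.000527), where 7.02% of the 513 microRNAs tested were called higher. Brought to equal totals (RPM), 6 of 6 were higher as well, against a background of 13.5%. All 6 passed the filter of a mean value of at least 5, but miR-294-5p and miR-295-5p passed it through PGC alone, since 4 of 6 had a mean of at least 5 within SC. Their direction was thus fixed by the filter, and their calls, which are included in each 6 of 6, add no support. The choice of scale moved the whole distribution: over all 513 microRNAs the log2 difference had a median of -2.57 on the deposited scale and, in RPM, of -0.74, while the 6 arms had medians of 4.5 and 6.66. With miR-295-5p set to its lower bound both medians of the arms were the same.

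For miR-292a-5p, the arm detected in all 12 libraries, the log2 difference was 4.35 ± 0.72 (SE, adjusted p = 0.000200 by limma) on the deposited scale and 6.58 ± 0.67 in RPM, with PGC higher in 6 of 6 pairs of the same stage and sex. Within single pairs the ratio of RPM was 15.2 (female E11.5), 533 (male E11.5), 369 (female E12.5), 322 (male E12.5), 38.5 (female E13.5) and 21.5 (male E13.5). The gap was thus widest where SC levels were lowest, apart from the female E11.5 pair. miR-291a-5p had the largest difference of all 513 microRNAs on both scales (log2 5.51 ± 0.79, adjusted p = 0.000200; 7.62 ± 0.83 at equal totals), miR-290a-5p the second (4.96 and 7.06) and miR-291b-5p the third (4.66 and 6.75), each in 6 of 6 pairs. These 3 were at 0 in both SC E11.5 libraries, so their sizes depend on the added 1.

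miR-294-5p (log2 3.93 ± 0.83, adjusted p = 0.000459; 5.82 at equal totals) was higher in PGC in 5 of 6 pairs and at 0 in both libraries of the female E11.5 pair. It was at 0 in 4 of 6 SC libraries, so its fitted size also depends on the added 1. In RPM it was 63.0-fold (female) and 23.0-fold (male) higher in PGC at E13.5. miR-295-5p was called too (adjusted p = 0.000527, and 0.00379 in RPM, by limma; 5 of 6 pairs), but its direction was fixed by the filter and SC showed no spread. Because all SC libraries were at 0, its fold is a lower bound: with 5 reads as the floor in each library, the PGC mean was at least 22.8-fold higher in RPM and at least 4.74-fold higher on the deposited scale. Without PGC female E11.5, 6 of 6 arms were still called on both scales, with log2 differences of 4.68 for miR-292a-5p on the deposited scale and 7.11 in RPM. In either direction 419 of all 513 microRNAs were then called on the deposited scale and 236 in RPM, and the number higher alone is not given here. With all libraries, 36 of 432 such calls were higher on the deposited scale and 69 of 200 in RPM.

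The germ cell and mesenchymal lists moved with this difference. The germ cell list had 4 of 5 members higher in PGC on both scales and 0 lower, and the mesenchymal and smooth muscle list had 5 of 5 lower on both scales, where 77.2% of all microRNAs were called lower on the deposited scale and 25.5% in RPM. On the deposited scale every member of the other cell type lists was lower in PGC. In RPM the lower members were 1 of 2 gonadal somatic (miR-202), 0 of 4 erythroid, 1 of 2 endothelial, 1 of 3 muscle and 0 of 1 liver microRNAs, and 0 were higher. Of the 3p arms of the cluster 6 could be tested, and 6 of 6 were higher on both scales, with a median log2 difference of 3.75 on the deposited scale. The related miR-302 cluster, whose miR-302 3p arms share the AAGUGC seed, is also known from pluripotent cells. Of its members 2 of 3 tested were lower on the deposited scale, where 77.2% of all microRNAs were. At equal totals 1 of 3 was higher, where 13.5% of all were, so no direction is read from these few members.

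**Figure D3:**
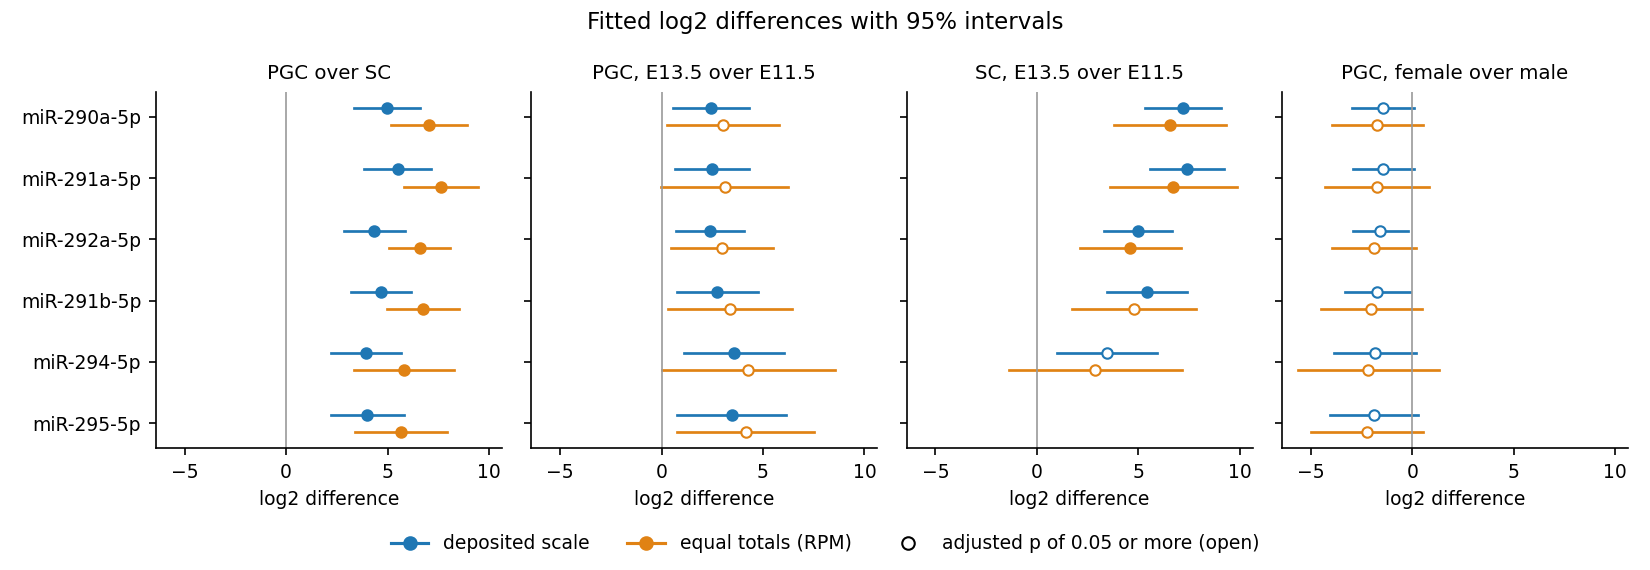
Fitted log2 differences of the 6 arms with 95% intervals in 4 comparisons, on the deposited scale (blue) and at equal totals (orange); filled points have an adjusted p under 0.05 and open points do not. The intervals of PGC over SC lie above 0 for all 6 arms on both scales, whereas those of female over male in PGC lie below or across 0 and are open throughout; miR-295-5p has no SC value in the third panel.

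Both arms of each hairpin were then set side by side. The 2 hairpins below are shown because they favour opposite arms: Mir292 gives mostly its 5p arm and Mir294 almost only its 3p arm. Capitals mark the 5p arm. Mir292 lies at chr7:3219189-3219270 and Mir294 at chr7:3220641-3220724, both on the plus strand of GRCm38.p6, with sequences from RefSeq.
Mir292: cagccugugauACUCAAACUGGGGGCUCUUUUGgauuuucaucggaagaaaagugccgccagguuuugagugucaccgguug
Mir294: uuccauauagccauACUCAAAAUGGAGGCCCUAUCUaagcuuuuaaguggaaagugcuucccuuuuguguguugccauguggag

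In PGC the 5p arm was the major product of 3 hairpins and the minor product of the other 3. Over all PGC libraries the 5p arm made up 98.1% of the reads of the miR-290a hairpin, 82.2% of miR-292a and 82.2% of miR-291b, against 38.9% for miR-291a, 2.41% for miR-294 and 1.05% for miR-295. In SC the shares were 78.4% for miR-292a, 75.7% for miR-291b, 24.9% for miR-291a and 1.15% for miR-294. In SC miR-290a-3p and miR-295-5p were at 0 in all 6 libraries, beside 260 reads of miR-290a-5p and 1901 reads of miR-295-3p. For comparison, 53.1% of 194 hairpins with both arms listed gave more 5p than 3p reads by mean RPM in PGC, and 51.8% of 195 in SC.

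For miR-292a the balance varied little beside the level. Its 5p reads were 78.2 to 85.04% of both arms in the 6 PGC libraries and 72.4 to 83.8% in the 6 SC libraries. The level of miR-292a-5p itself varied 81.1-fold among PGC libraries and 45.9-fold among SC libraries. Among the 5 PGC libraries other than PGC female E11.5 the level varied 2.82-fold. In PGC the 5p share of miR-292a was lower in the female than in the male library at each of the 3 stages: 79.3% in the female and 82.5% in the male library of E11.5, 78.2% and 83.1% of E12.5, and 80.7% and 85.04% of E13.5. This difference of 1 library against 1 per stage was not tested. miR-291b varied more, from 69.6% (PGC female E11.5, on 23 reads) to 93.6% (PGC female E12.5) in PGC. miR-291a ran from 24.7% (PGC female E11.5) to 50.9% (PGC female E12.5) in PGC, with 18.0 to 35.7% in the 4 SC libraries in which both arms were found.

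By limma on the log2 ratio of 5p to 3p, 0 of 152 hairpins were called different between PGC and SC (0% in either direction), and 18 had an unadjusted p under 0.05. Of the 5 hairpins of the set that could be tested, miR-291a had the largest shift towards the 5p arm in PGC (log2 1.83 ± 0.54, SE, adjusted p = 0.247; higher in 6 of 6 pairs). It includes both SC E11.5 libraries, in which miR-291a-5p was at 0 beside 26 (female) and 19 (male) reads of the 3p arm. The shifts were 0.69 ± 0.52 for miR-291b, 0.39 ± 0.25 for miR-292a, 0.10 ± 0.52 for miR-294 and 0.66 ± 0.82 for miR-295. For miR-294 and miR-295 nothing can be read from these shifts, since miR-294-5p was at 0 in 4 and miR-295-5p in all 6 SC libraries, where the ratio is set by the added 1. The 95% interval for miR-292a was -0.18 to 0.96, and that for miR-291a 0.61 to 3.06. Mir290a was left out of the fit because its 3p arm had a mean value under 5.

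**Figure D4:**
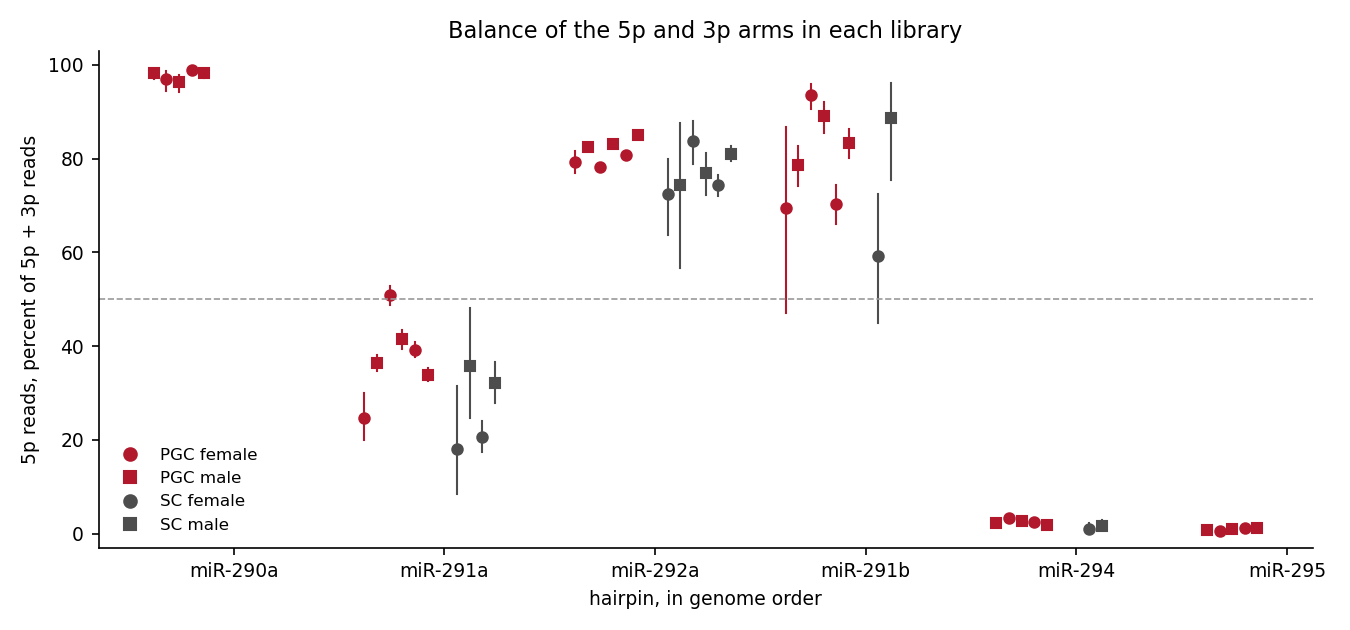
Percent of the reads of each hairpin that came from its 5p arm, per library, for the 6 hairpins in genome order, with PGC in red and SC in grey, circles for female and squares for male; within a hairpin each cell type runs from E11.5 to E13.5, bars are exact 95% intervals for counting error, the dashed line marks 50%, and libraries with either arm at 0 are left out. miR-290a lies highest (98.1% over the PGC libraries), miR-292a lies between 72.4% and 85.04%, and miR-294 and miR-295 lie near 0, while miR-291a runs from 18.0% to 50.9%.

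Stage was compared within PGC to ask how the arms changed while germ cells enter their female or male course. From E11.5 over E12.5 to E13.5, the male PGC libraries had 1354, 2443 and 1810 RPM of miR-290a-5p, 2805, 5468 and 3714 RPM of miR-291a-5p, and 22656, 63994 and 42041 RPM of miR-292a-5p. In RPM all 6 arms were highest at E12.5 in male PGC. In female PGC, again in RPM, miR-291a-5p, miR-292a-5p, miR-291b-5p and miR-294-5p were highest at E12.5 too, whereas miR-290a-5p (41.8, 1763 and 2166 RPM) and miR-295-5p (0, 83.9 and 151 RPM) were highest at E13.5. The peak stage turned with the scale: in deposited values all 6 arms were highest at E13.5 in both sexes, with 8373, 9434 and 15205 for miR-292a-5p in male PGC and 709, 5934 and 10566 in female PGC. Over all microRNAs the deposited values summed to 369596, 147413 and 361680 in male PGC and 897730, 105730 and 389180 in female PGC. The deposited step from E12.5 to E13.5 thus includes a rise of the library total. In RPM the ratio of E12.5 to E11.5 lay between 1.80 (miR-290a-5p) and 2.82 (miR-292a-5p) in male PGC. In female PGC it was 42.2 for miR-290a-5p, 71.1 for miR-292a-5p, 114 for miR-291a-5p and 155 for miR-291b-5p, and at least 20.5 and 130 for miR-295-5p and miR-294-5p. The female ratios all rest on PGC female E11.5.

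By limma on the deposited scale, 1 of 6 arms was called higher at E12.5 than at E11.5 in PGC (1.56% of all microRNAs were), and 2 of 6 at equal totals (7.41%). The arm called on the deposited scale was miR-294-5p (log2 2.90 ± 1.23, adjusted p = 0.0385; higher in 1 of 2 sexes). At equal totals they were miR-292a-5p (3.82 ± 1.06, adjusted p = 0.0295) and miR-291b-5p (4.30 ± 1.29, adjusted p = 0.0369), each higher in 2 of 2 sexes. Without PGC male E11.5, which leaves 1 PGC library of that day, the deposited log2 differences ran from 2.61 (miR-290a-5p) to 5.91 (miR-294-5p). On that scale 0 were called without PGC female E12.5 or without any 1 of the SC libraries of E11.5 and E12.5, which share the estimate of the spread. Without PGC female E11.5 the deposited log2 differences were -0.80 (miR-290a-5p), -0.40 (miR-291a-5p), 0.14 (miR-292a-5p), 0.16 (miR-291b-5p), -0.12 (miR-294-5p) and -0.47 (miR-295-5p). At equal totals they ran from 0.67 (miR-290a-5p) to 1.63 (miR-291b-5p), so 4 of 6 arms changed sign with the scale.

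Between E13.5 and E12.5, 0 of 6 arms were called in PGC by limma on either scale, and 0 had an unadjusted p under 0.05, which 204 of all 513 microRNAs had on the deposited scale and 151 in RPM. voom called 0 of all 513. On the deposited scale 31.6% of microRNAs were called higher at E13.5 and 0% lower, and in RPM 9.75% higher and 0.78% lower. The arms had log2 differences of 0.66 to 1.84 on the deposited scale, beside a median of 1.39 for all microRNAs (0.01 at equal totals). At equal totals they ran from -0.92 (miR-291b-5p) to 0.34 (miR-295-5p), so 5 of 6 changed sign with the scale.

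Between E13.5 and E11.5, 6 of 6 arms were called higher in PGC on the deposited scale (7.8% of all microRNAs; adjusted p between 0.0202 and 0.0395) and 0 at equal totals (7.41%; 5 of 6 arms were higher at an unadjusted p under 0.05, as were 60 of all 513 microRNAs; voom called 0 arms and 122 of the 513). miR-292a-5p had a log2 difference of 2.38 ± 0.83 (adjusted p = 0.022), and 3.0 ± 1.06 (adjusted p = 0.0784) at equal totals. Beside their SE these differences are of similar size. The unadjusted p by limma was 0.00589 and 0.0256, because the degrees of freedom it uses differ between the scales. Without PGC female E11.5, which leaves 1 PGC library of that day, the deposited differences lay between 0.41 (miR-291a-5p) and 1.38 (miR-295-5p). Without PGC male E11.5 they lay between 3.86 (miR-292a-5p) and 6.61 (miR-294-5p). On the deposited scale calls were lost without PGC female E11.5, PGC female E13.5 or PGC male E13.5, and without any 1 of the SC libraries of E11.5 and E12.5. Single calls were also lost without some of the remaining libraries. With each of the 12 libraries left out in turn, an arm lost its call between 4 (miR-294-5p) and 8 times (miR-290a-5p). In male PGC alone the ratio of RPM between these days was 1.32 (miR-291a-5p) to 2.09 (miR-295-5p). Across the same days the mesenchymal list fell by limma in 5 of 5 members on both scales (25.1% and 21.4% of all microRNAs did), and the germ cell list rose in 5 of 5 on both. The gonadal somatic list, miR-202-5p and miR-202-3p, rose in 2 of 2 on both scales (median log2 difference 2.96, and 3.93 in RPM). Endothelial (2 of 2), muscle (3 of 3) and liver (1 of 1) microRNAs fell on both scales, and erythroid ones in 3 of 4 on the deposited scale and 1 of 4 in RPM. These list results include PGC female E11.5, and the lists were not fitted without it. In male PGC alone the mesenchymal list summed to 57896 RPM at E11.5 and 8143 RPM at E13.5. The germ cell list summed to 434 and 9093 RPM, and the gonadal somatic list to 155 and 1063 RPM. The part of these cell type shifts in the values of the 5p arms was not tested.

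In SC the arms stood very low at E11.5 and most rose by E13.5. miR-292a-5p, with the values given above, was higher at each later stage in 2 of 2 sexes. miR-290a-5p had 88.6 (female) and 96.3 RPM (male) at E13.5, against 3.35 and 3.62 at E12.5 and 0 at E11.5. Both sexes thus showed the larger step between E12.5 and E13.5. By limma, 4 of 5 testable arms were called higher at E13.5 than at E11.5 on the deposited scale (8.38% of all microRNAs) and 3 at equal totals (6.63%), while voom called 0 of the 5 and 42 of all 513 microRNAs. miR-295-5p, at 0 in all SC libraries, could not be tested.

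miR-292a-5p had a log2 difference of 4.98 ± 0.83 (adjusted p = 4.62e-06) on the deposited scale and 4.61 ± 1.06 (adjusted p = 0.0437) in RPM. miR-290a-5p, miR-291a-5p and miR-291b-5p were at 0 in both E11.5 libraries, so their folds are lower bounds with 5 reads as the floor in each library. In mean RPM, SC E13.5 was at least 16.8-fold higher for miR-290a-5p, at least 20.04-fold for miR-291a-5p and at least 5.13-fold for miR-291b-5p. miR-291b-5p passed on the deposited scale only (adjusted p = 2.47e-05 against 0.0759 at equal totals). miR-294-5p did not pass (adjusted p = 0.0581 and 0.382), with 7 and 10 reads in the female and male E13.5 libraries. With 4 arms at their bounds, the median log2 difference of the 5 was 4.64 on the deposited scale, against -0.01 for all microRNAs, and 4.07 at equal totals, against -0.34. Without SC male E11.5, 1 SC library of that day remained, and the deposited differences were 6.76 for miR-291a-5p and 3.55 for miR-292a-5p. The calls in SC also moved when PGC female E11.5, which shares the estimate of the spread, was left out.

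At E13.5 the sum of the 6 arms in SC stood at 2.62% (female) and 4.55% (male) of the PGC level of the same sex, compared with 0.244% and 0.304% at E12.5. The germ cell list in SC stood at 8.0% and 12.1% of its PGC level at E13.5, and at 0.608% and 2.23% at E12.5. It summed to 863 and 1102 RPM in SC at E13.5 with 5 of 5 members detected, against 0 to 39.1 RPM in the 4 earlier SC libraries. By limma 5 of 5 members of this list were higher at E13.5 than at E11.5 in SC on the deposited scale and 4 of 5 in RPM, beside 8.38% and 6.63% of all microRNAs. The gonadal somatic list was higher in 2 of 2 on both. The part of germ cells left in the SC fraction was not tested.

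Whether the change between E13.5 and E11.5 differed between PGC and SC was tested by an interaction term. miR-291a-5p rose less in PGC than in SC (log2 -4.88 ± 1.29, adjusted p = 0.0497 by limma), the 1 of 5 arms called on the deposited scale, where 0.78% of microRNAs were called lower. At equal totals 0 of 5 arms and 0 of all 513 microRNAs were called. At an unadjusted p under 0.05 there were 0 arms and 108 of the 513, and voom called 0 of the 513. miR-290a-5p had -4.78 (adjusted p = 0.064), miR-292a-5p -2.60, miR-291b-5p -2.68 and miR-294-5p 0.12 on the deposited scale. The call of miR-291a-5p was lost when any 1 of 10 of the 12 libraries was left out, and it held without SC female E13.5 and without PGC female E11.5 (-6.97 and adjusted p = 0.0482 without the PGC library). Since miR-291a-5p was at 0 in both SC E11.5 libraries, the size of its term depends on the added 1.

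The sexes were compared within each cell type over the 3 stages. In PGC, 0 of 6 arms were called by limma on either scale (in RPM 0% of all microRNAs were called in either direction, and on the deposited scale 0.39% higher and 0% lower in females), and voom called 0 of all 513. On the deposited scale 2 of 6 arms had an unadjusted p under 0.05, as had 51 of all 513 microRNAs (9 of them lower in females), and at equal totals 0 arms and 83 of the 513. All 6 fitted differences were negative, female over male, from -1.87 (miR-295-5p) to -1.43 on the deposited scale and from -2.24 to -1.73 at equal totals. Without PGC female E11.5 the difference of miR-292a-5p was -0.60 and that of miR-291a-5p -0.04, and that of miR-294-5p turned to 0.19. At equal totals miR-291a-5p turned as well (0.14, and 0.38 for miR-294-5p). In the E11.5 pair miR-292a-5p was 28.7-fold lower in female PGC, miR-291a-5p 45.7-fold lower and miR-291b-5p 51.3-fold lower.

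At the later stages the sexes differed by far less, with ratios between 0.552 and 1.45. The female to male ratio of RPM in PGC was 0.877 (miR-292a-5p), 1.28 (miR-291a-5p), 0.721 (miR-290a-5p), 1.13 (miR-291b-5p), 1.45 (miR-294-5p) and 0.552 (miR-295-5p) at E12.5. At E13.5 it was 0.646, 0.954, 1.2, 0.633, 1.17 and 1.12 in the same order of arms. In RPM, miR-292a-5p was the only arm whose female library was lower at all 3 stages; on the deposited scale miR-291b-5p was the other. In SC, 0 of 5 arms were called on either scale by limma (1.17% of all microRNAs were called higher in females on the deposited scale and 0% lower, and 0% in RPM), with 0 at an unadjusted p under 0.05 (42 of all 513 on the deposited scale and 22 in RPM), and voom called 0 of all 513. At E13.5 miR-292a-5p was 0.362 times as high in the female as in the male SC library, miR-291a-5p 0.527 times and miR-290a-5p 0.920 times.

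The 6 arms followed each other closely across libraries. As a description over the same 12 libraries, which share the split into PGC and SC, Pearson's r of log2(RPM + 1) between pairs of arms ran from 0.877 to 0.998 over 15 pairs, and from 0.967 to 0.999 within the 6 PGC libraries, of which PGC female E11.5 lay far below the others. Of 332 microRNAs with a mean value of at least 50, the 10 most like the mean profile of the arms all came from the cluster. Of these, 4 are arms that enter that mean themselves, and the other 6 were led by miR-295-3p (r = 0.998), a 3p arm outside the set. miR-293-5p, which carries the CUCAAAC seed of miR-290a-5p and miR-292a-5p but is not among the 6, had r = 0.964 and ranked 9th. In female PGC its levels ran differently, with 188, 1163 and 5813 RPM on the 3 days, where miR-292a-5p had 789, 56126 and 27149 RPM.

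The 8 microRNAs outside the cluster with the most similar profiles were miR-20b-5p (r = 0.951), miR-30c-2-3p (0.948), miR-106a-5p (0.940), miR-3535 (0.931), miR-183-5p (0.917), miR-467e-5p (0.916), miR-182-5p (0.914) and miR-1291 (0.903). In mean RPM, miR-20b-5p had 5534 in PGC against 245 in SC, miR-183-5p 14290 against 1032 and miR-182-5p 26191 against 1748. miR-30c-2-3p, at 417 against 201 RPM, differed far less in level between the cell types than miR-292a-5p, at 35459 against 517 RPM.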

How the data were processed

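MicroRNAs were sequenced (MiSeq) from 12 libraries. Per the submitters' processing notes, FastQC, Trim Galore, Bowtie 1.1.2, DESeq and the GRCm38 genome were used; neither the counting step nor the annotation release is given in the sources used here. Each deposited signal value is the read count of a mature microRNA over the size factor of its library: 100% were whole multiples (tolerance 1e-06) of the smallest value divided by 5, which gave back read numbers from the authors' values. RPM was computed from these. The single-library files matched the joint table in all 12 columns.

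Differences were fitted with limma 3.58.1 in R 4.3.3 (trend) on log2(value + 1) over 513 of 616 microRNAs with a mean value of at least 5, with Benjamini-Hochberg adjustment over all 513 and a threshold of 0.05. PGC against SC used the stage and sex pair as a block (6 pairs, paired by the labels' stage and sex, 5 residual degrees of freedom); stage and sex used an additive fit within cell type over all 12 libraries (4 residual degrees of freedom). To the residual degrees of freedom limma adds a number estimated from all tested microRNAs, separately on each scale. The p-values therefore do not rest on the residual ones alone, and the same ratio of difference to SE can give unlike p-values. Arm ratios used 152 of 196 hairpins. Intervals are exact 95% binomial and cover counting error only. The fits were also run on simulated counts without an outlying library or a cut at 5 reads. That run therefore does not show how the fits behave on the present libraries. The members and lists were chosen with earlier results of these data known; microRNAs outside the cluster were named as the 8 with the highest r. The planned edgeR and DESeq2 fits were not run. The files hold size-factor-scaled values, and of the methods for counts only voom was fitted, to the recovered read numbers. Alternatives were equal totals, other added constants and filters, no block, each library left out, and voom.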

Additional observations from a re-analysis of the deposited data

Results flagged for a closer look

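miR-292a-5p in SC male E13.5 had 1952 RPM, far above the next SC value of 706 RPM (SC female E13.5). The gap was 0.653 of the range of the 6 SC libraries, past Dixon's critical value of 0.625, which chance exceeds in about 5% of groups; 22 such tests were made and 1 passed. The 6 SC libraries span 3 stages, and the arm was higher at each later stage in both sexes. The germ cell list summed to 1102 RPM in the same library and 863 RPM in SC female E13.5.

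The log2 change of miR-291a-5p between E13.5 and E11.5 differed between PGC and SC by -4.88 (adjusted p = 0.0497 by limma, interaction term) on the deposited scale. At equal totals it was -3.61 (adjusted p = 0.32).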

How the results depend on the processing

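Of 1122 values recomputed over 24 settings, 916 kept their direction and side of the threshold or, for counts of arms called, stayed close to the main count; 50 reversed, single arms lost a call in 97 and gained one in 14, and 45 counts moved further. PGC over SC kept 6 arms called in each setting in which 6 were tested, and 4 of 4 at a mean value of at least 50. Without the replicate block 6 were called as well (382 microRNAs in all, against 432 with the pairing). The edgeR and DESeq2 alternatives were not run. No cause of the changes below was tested.

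The count of arms called for PGC E12.5 over E11.5 (1) became 2 at equal totals, with 5 added and by voom, and 0 with 0.5 added, without a filter, at a mean of at least 50, and at equal totals without PGC female E11.5. For PGC E13.5 over E11.5 (6) it became 2 with 0.5 added, 3 without a filter, and 0 at equal totals, by voom, and at equal totals without PGC female E11.5. For SC E13.5 over E11.5 (4) it became 3 at equal totals and 0 by voom. For the interaction (1) it became 2 at a mean of at least 50 and 0 at equal totals, with 0.5 or 5 added, without a filter, by voom, and at equal totals without PGC female E11.5.

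For PGC E13.5 over E12.5 the sign turned at equal totals, with or without PGC female E11.5, for miR-290a-5p (-0.068), miR-291a-5p (-0.77), miR-292a-5p (-0.83), miR-291b-5p (-0.92) and miR-294-5p (-0.88), and by voom (-0.11, -0.72, -0.78, -0.82 and -0.80). The interaction of miR-294-5p turned to -0.31 with 0.5 added and to -2.42 at equal totals without PGC female E11.5, where the sex difference in PGC turned to 0.14 for miR-291a-5p and 0.38 for miR-294-5p. With 5 added, the arm ratio turned to -1.06 for miR-294 and -1.03 for miR-295.

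With each library left out in turn, which leaves 1 library in some arms and assumes it varies like the others, counts ran from 0 to 6 for PGC E12.5 over E11.5 and for PGC E13.5 over E11.5, 2 to 5 in SC and 0 to 1 for the interaction. For PGC E12.5 over E11.5 miR-290a-5p ran from -0.80 to 2.61, miR-291a-5p from -0.40 to 3.76, miR-294-5p from -0.12 to 5.91 and miR-295-5p from -0.47 to 3.68. For PGC E13.5 over E12.5 miR-291a-5p ran from -0.29 to 1.92, miR-291b-5p from -0.39 to 1.72, miR-292a-5p from -0.034 to 1.56 and miR-294-5p from -0.92 to 2.31. The sex difference ran from -2.90 to 0.19 for miR-294-5p in PGC, from -0.16 to 0.0091 for miR-290a-5p and from -0.96 to 0.82 for miR-292a-5p in SC. The interaction of miR-294-5p ran from -2.90 to 3.14, and the arm ratio of miR-294 from -0.17 to 0.48. With 166804 reads in the shallowest library, values under 29.98 RPM could not be seen there.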
